A study of Mus musculus with 2 samples.

Results

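The genes described here encode calcitonin gene-related peptide (CGRP) and the parts of its receptor. The peptide comes from Calca and Calcb, the receptor from Calcrl, and its accessory proteins from Ramp1, Ramp2 and Ramp3. These 6 members, of 28692 genes counted, were chosen by name with earlier values of these libraries known, in which Calca stood out as dorsal and Ramp1 as ventral. Their levels in the dorsal and ventral libraries are therefore given as a description. The cells came from the base of the heart of 3-day-old C57Bl6 mice of both sexes. The dorsal library came from tissue with the pulmonary veins, the sinoatrial node and the cardiac ganglia, and the ventral library from tissue with the outflow tract base, the pulmonary artery and the first part of the aorta. Both were made from the same 15 hearts, whose cells were combined by domain and kept as adherent cultures for 5 days, so cells that do not attach or survive culture, such as many neurons and cardiomyocytes, can be under-represented. The labels name no transgene or treatment, and no domain has a replicate library.

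CGRP is a vasodilator neuropeptide, best known from sensory nerves that run along blood vessels and through the heart. Calca is spliced into a messenger for calcitonin or a messenger for CGRP, and Calcb is its neighbouring copy, which makes a closely related CGRP. The receptor encoded by Calcrl binds CGRP when it is paired with the single-pass protein RAMP1. Paired with RAMP2 or RAMP3, the same receptor responds mainly to adrenomedullin, a peptide needed for the growth of blood and lymphatic vessels. Binding of either peptide raises cyclic AMP through the G protein subunit Gs.

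The genes for the peptide lie side by side on GRCm38, with Calca on chromosome 7 from 114631478 to 114636357 on the minus strand and Calcb from 114718643 to 114723365 on the plus strand, 82285 bases apart. The receptor and partner genes lie elsewhere, with Calcrl on chromosome 2 from 84330626 to 84425411 (minus), Ramp1 on chromosome 1 from 91179822 to 91225196 (plus), Ramp2 on chromosome 11 from 101246028 to 101259546 (plus) and Ramp3 on chromosome 11 from 6658521 to 6677475 (plus). The stretch of coding sequence in which the peptide genes were most alike is shown because it bears on whether reads can be told apart. It spans 170 bases, from coding base 200 of transcript Calca-201 and from coding base 203 of Calcb-201 in GENCODE M21, and the 11 bases that differ are in capitals. Across exons it lies in chr7:114632458-114634495 (minus strand) for Calca and chr7:114720187-114722116 (plus strand) for Calcb on GRCm38.
Calca: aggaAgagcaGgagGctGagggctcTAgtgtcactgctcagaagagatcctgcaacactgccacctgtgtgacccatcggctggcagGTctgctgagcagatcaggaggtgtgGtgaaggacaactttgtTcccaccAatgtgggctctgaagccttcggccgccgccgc
Calcb: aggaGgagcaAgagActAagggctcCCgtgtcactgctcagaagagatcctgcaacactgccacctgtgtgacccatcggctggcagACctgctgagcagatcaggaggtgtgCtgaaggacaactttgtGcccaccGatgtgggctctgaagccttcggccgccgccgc
These stretches were 93.5% identical. Over whole transcripts the longest identical run was 61 bases, and within the last 300 bases, where 3' libraries take most of their reads, it was 13 bases. Reads from the coding end could be shared by the genes, while reads from the 3' ends could not be over more than that run. Counts were made per gene, so calcitonin and CGRP messengers of Calca cannot be told apart in them.

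Values below are unique molecular identifiers (UMIs, counts of captured RNA molecules) summed over cells and scaled to a common total (counts per 1e6 UMIs, CPM). A cell was a barcode with at least 8000 UMIs and at most 20% mitochondrial UMIs, which gave 8926 dorsal cells with 229117951 UMIs and 10649 ventral cells with 253103590 UMIs, at medians of 22774 and 21462 UMIs per cell. The 95% intervals are exact and cover counting error only, not differences between dissections or cultures. UMIs of 3' libraries do not grow with transcript length, so CPM can be set beside each other between genes as molecules captured. Cells were grouped without the member genes into 28 clusters, of which 8 had at least 20 cells in each library, and a cluster was given a name ending in "-like" only where marker genes carried it. Of the cell barcodes, 22 occurred in both libraries, against 13.99 from their shares of all barcodes, and 0 of these fell in the same cluster on both sides.

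The peptide gene Calca was higher in the dorsal library and the CGRP receptor partner Ramp1 in the ventral library. Calca had 27.0 CPM (6197 UMIs, 95% interval 26.4 to 27.7) in dorsal cells and 0.735 CPM (186 UMIs, 0.633 to 0.848) in ventral cells, which gave a log2 ratio of 5.20 (4.99 to 5.42). Ramp1 went the other way, with 8.64 CPM (1979 UMIs) in dorsal cells and 60.9 CPM (15406 UMIs) in ventral cells, for a log2 ratio of -2.82 (-2.89 to -2.75), so its level in ventral cells was 7.05-fold that in dorsal cells. The receptor gene Calcrl itself was close to even, with 5.41 CPM (1240 UMIs) in dorsal cells and 4.37 CPM (1105 UMIs) in ventral cells and a log2 ratio of 0.31 (0.19 to 0.43). The adrenomedullin partner Ramp2 had 20.4 CPM (4678 UMIs) in dorsal cells and 10.0 CPM (2538 UMIs) in ventral cells, and its log2 ratio was 1.03 (0.96 to 1.10), or 0.91, under 2-fold, when the libraries were scaled by TMM. Calcb and Ramp3 were rare, Calcb at 0.292 CPM (67 UMIs) in dorsal cells and 0.115 CPM (29 UMIs) in ventral cells, and Ramp3 at 0.855 CPM (196 UMIs) in dorsal cells and 0.332 CPM (84 UMIs) in ventral cells. Their log2 ratios were 1.35 (0.70 to 2.03) for Calcb, or 3.63 without the barcodes found in both libraries, and 1.37 (0.99 to 1.75) for Ramp3. In dorsal cells the order of the levels was Calca, Ramp2, Ramp1, Calcrl, Ramp3 and Calcb, with no overlap of neighbouring intervals. In ventral cells it was Ramp1, Ramp2, Calcrl, Calca, Ramp3 and Calcb, again with no overlap.

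**Figure D1:**
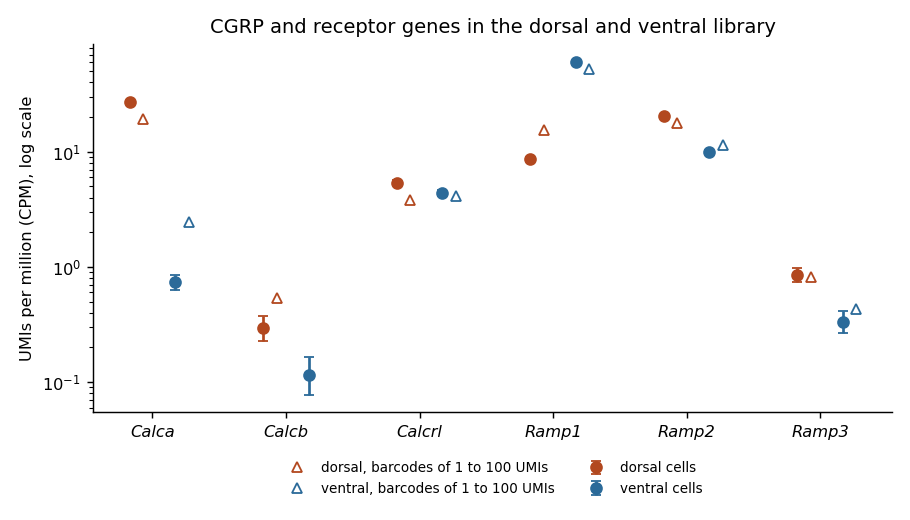
Level of the 6 genes in each library in CPM on a log axis. Filled circles are cells with exact 95% Poisson intervals, and open triangles are barcodes of 1 to 100 UMIs, which hold mostly free RNA. Calca is high in dorsal cells (27.0 CPM) and Ramp1 in ventral cells (60.9 CPM), while Calcrl is similar in both. Calcb had 0 UMIs in the ventral low-UMI barcodes and has no triangle there.

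Of the 6 members, 3 reached 20 CPM in either library and could be set against the other genes at that level. Calca and Ramp2 had dorsal levels of at least 2 times the ventral ones, as did 4.69% of 5821 genes, and Ramp1 was lower by at least 2-fold, as were 5.12%. Since the members were picked for these values, nothing is read from that count. Free RNA in the suspension carried the same genes. Barcodes of 1 to 100 UMIs had 19.2 CPM of Calca in the dorsal and 2.43 CPM in the ventral library, and 15.4 and 52.7 CPM of Ramp1. For Ramp1 in the dorsal and Calca in the ventral library these levels were above those of the cells. Dorsal endothelial-like cells had Calca in 1 of 77 cells (1.30%, median 20181 UMIs), against 9.44% of all dorsal cells (843 of 8926). Several other dorsal classes were nearer that share. Calca was found in 3 of 25 T cell-like (12.0%), 5 of 45 cardiomyocyte-like (11.1%), 19 of 196 macrophage-like (9.69%, median 43244 UMIs) and 2 of 27 lymphatic endothelial-like cells (7.41%). The part of free RNA in these shares was not tested, so shares of this size are not read as expression by a class.

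Calca was carried by a small group of dorsal cells. In the dorsal library 843 cells had at least 1 Calca UMI and 383 of these had exactly 1, while the 158 cells with at least 10 held 73.1% of all dorsal Calca UMIs. The highest cell had 141. In the ventral library 77 cells (0.723%) had Calca, 47 of them with 1 UMI and 3 with at least 10, up to 18. With every cell thinned to 8000 UMIs the shares were 5.89% of dorsal (5.41 to 6.402) and 0.329% of ventral cells (0.229 to 0.457).

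These cells fell mainly into clusters 7, 4 and 13, which together held 34.5% of dorsal cells and 90.9% of dorsal Calca UMIs. Cluster 7 (1015 dorsal cells, unnamed) was led by Saa3, an acute-phase serum amyloid, and Hpgd, which breaks down prostaglandins. It had Calca at 112.6 CPM, in 299 cells or 29.5%, with a median of 4 UMIs in positive cells, and held 52.1% of dorsal Calca UMIs. Cluster 4 (1474 cells, fibroblast-like) was led by genes that include the TNF family ligand Tnfsf8 and the B cell chemokine Cxcl13. It had 37.5 CPM, in 288 cells or 19.5%, and 29.2% of the UMIs. Cluster 13 (590 cells, unnamed), led by the chemokine Ccl11 and the alarmin Il33, had 50.2 CPM in 73 cells (12.4%) and 9.59% of the UMIs. In each of the 3 clusters most cells had no Calca UMI, and 78, 55 and 17 cells of clusters 7, 4 and 13 had at least 10. The other dorsal clusters of at least 50 cells ranged from 0.551 CPM in the endothelial-like cluster 18 to 15.0 CPM in the cycling cluster 6, which is led by Ube2c and Top2a. In ventral cells 41 of the 77 positive cells lay in the mesothelial-like cluster 8, at 4.42 CPM (112 UMIs), and a Calca UMI was found in 0 of 663 smooth muscle-like cells, which allows up to 0.452% of cells with a UMI.

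**Figure D2:**
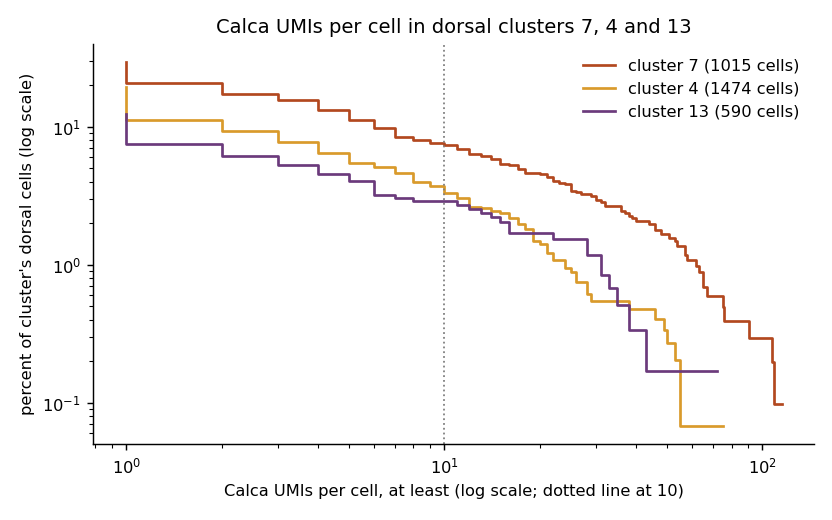
Percent of dorsal cells in clusters 7, 4 and 13 (log axis) with at least the number of Calca UMIs on the horizontal axis (log axis). The lines begin at 29.5%, 19.5% and 12.4% of cells with at least 1 UMI, and the dotted line marks 10 UMIs (78 cells of cluster 7, 55 of cluster 4 and 17 of cluster 13).

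Where a cluster had cells of both libraries, Calca was higher in dorsal cells or its interval was too wide to tell. In the 8 shared clusters the interval of the dorsal over ventral ratio lay above 0 in 4 and spanned 0 in 4. In the cycling cluster 6 Calca had 15.0 CPM (104 UMIs) in 183 dorsal cells and 0.244 CPM (6 UMIs) in 902 ventral cells, 5.94 apart on the log2 scale (4.77 to 7.42). Macrophage-like cells had 8.56 CPM (78 UMIs) in the dorsal and 0.506 CPM (2 UMIs) in the ventral library, and the ratio was 4.08 on the log2 scale (2.18 to 7.15). Both dorsal values lie below the 19.2 CPM of dorsal low-UMI barcodes, and the part of free RNA in them was not tested.

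Markers of neurons and neuroendocrine cells, known sources of these peptides, were at low levels over all Calca-positive and all Calca-negative dorsal cells. No cluster met the naming rule for neurons. Of 10 neuron and 8 neuroendocrine markers, 1 of each list reached 20 CPM, so a count of changed markers was not informative. The summed level of 10 neuron markers was 29.3 CPM in Calca-positive and 53.6 CPM in Calca-negative dorsal cells, with Th at 0 in the positive cells. Among the neuroendocrine markers, Chga, Resp18 and Insm1 were at 0 in the positive cells, and the summed level of the list was 35.1 CPM in positive and 30.5 CPM in negative cells. Within cluster 7, which has the neuroendocrine marker Scg2 among its leading genes, that sum was 64.1 CPM in positive and 200.1 CPM in negative cells. It was 19.0 and 7.90 CPM in cluster 4, and 88.9 and 17.7 CPM in cluster 13. In cluster 13, 60.7% of the positive cells' Scg2 UMIs came from 1 cell. Summed fibroblast markers were at 16971 CPM in positive and 14994 CPM in negative cells. Of 10 mesothelial markers, with a summed level of 179.4 CPM in positive and 86.9 CPM in negative cells, 3 reached 20 CPM, and Lrrn4 and Wt1 among them were at least 2-fold higher in the positive cells. Upk3b and Upk1b, below that level, had log2 ratios of 2.43 (2.26 to 2.60) and 1.68 (1.497 to 1.86), while Msln was even at 0.02 (-0.09 to 0.12). Positive cells were slightly deeper, at a median of 25138 UMIs against 22397, and 8.90% of them against 6.95% were marked as possible doublets.

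Among 5708 genes compared between Calca-positive and Calca-negative dorsal cells, 0.736% were at least 2-fold higher in the positive cells and 1.1% at least 2-fold lower. Since cells carry their cluster with them, these ratios mix differences between and within clusters. The largest ratios were those of Serpinb2, a plasminogen activator inhibitor (log2 ratio 3.26, found in 77 positive cells), Cxcl13 (2.82), the mesothelial surface protein Lrrn4 (2.58), the collagen chain Col6a5 (2.53), and Cd74, the invariant chain of MHC class II (2.26). They were followed by Saa3 (1.83), Npl (1.68), an enzyme of sialic acid breakdown, and Wt1 (1.62), the transcription factor of mesothelium and epicardium. Cxcl13 had 569.9 CPM in positive and 80.6 CPM in negative cells and was found in 49.3% of positive and 16.0% of negative cells. The lowest ratios were those of the skeletal muscle genes Acta1 (-2.90), Mylpf (-2.45), Myl1 (-2.15) and Tnni1 (-2.11), with 71.5% of the positive cells' Acta1 UMIs in 1 cell.

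Cxcl13 was also higher in Calca-positive cells within each of the 3 clusters. The level was 613.5 CPM in positive and 124.3 CPM in negative cells of cluster 7 (log2 ratio 2.30, 2.23 to 2.37), 619.8 and 151.8 CPM in those of cluster 4 (2.03, 1.98 to 2.08), and 1473.7 and 386.4 CPM in those of cluster 13 (1.93, 1.86 to 2.01). These intervals treat UMIs as independent, although a single cell held 9.94%, 6.22% and 10.7% of the positive cells' Cxcl13 UMIs in clusters 7, 4 and 13. Among the 8 highest ratios of each cluster, only Cxcl13 was named in all 3, and Serpinb2 was named in clusters 7 and 13. Wt1, among the 8 highest in cluster 4, was also higher in positive cells of clusters 7 and 13. The other genes at these ranks differed by cluster. In cluster 7, where positive cells were shallower (median 21772 UMIs against 27813), the positive cells had more of the homeobox gene Hoxa5, at 122.6 CPM against 30.1 CPM (log2 ratio 2.03, 1.88 to 2.18), and of Rarres1 (2.94), Ptgds (2.56), Cldn10 (2.13) and Lamc3 (2.08). They had less Dpp4 (-2.05), S100a6 (-1.73) and Msln, the mesothelial antigen mesothelin, at 111.4 CPM against 304.5 CPM (-1.45, -1.56 to -1.34). Some other mesothelial markers went the other way, with log2 ratios of 1.13 (0.96 to 1.29) for Lrrn4, 0.99 (0.82 to 1.17) for Upk3b, 0.34 (0.15 to 0.52) for Upk1b and 0.33 (0.19 to 0.47) for Wt1. The 10 mesothelial markers together were lower in positive cells of cluster 7, at 461.8 CPM against 583.5 CPM. Of the 7 that reached 20 CPM, 1 was at least 2-fold higher and 1 at least 2-fold lower. In cluster 4 the positive cells had more Chodl (1.78), the Wnt modulator Sfrp2 (1.57), Shisa3 (1.496) and Mest (1.46), and less of the matrix protein Tnc (-1.26) and Wisp2 (-1.22). In cluster 13 several high ratios rested on 1 cell, as with Serpinb2, of which 96.8% came from 1 of 2 positive cells with the gene, whereas the LIM homeobox gene Lhx8 (1.83) was found in 47 of 73 positive cells. At least 2-fold higher in positive cells were 1.1% of genes in cluster 7, 0.259% in cluster 4 and 0.583% in cluster 13, and at least 2-fold lower were 0.464%, 0.074% and 1.22% in these clusters.

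Of the mesothelial genes, 5 were searched for cell by cell, and at least 1 of them was found in most cells of cluster 7. Few cells of clusters 4 and 13 had any of the 5, whether or not a cell had Calca. Wt1 was not among the 5. In cluster 4 it was found in 149 of 288 positive cells, at 30.4 CPM against 14.5 CPM in negative cells (log2 ratio 1.07, 0.85 to 1.28). In cluster 13 it was at 11.1 CPM over all dorsal cells. Wt1 was the 1 mesothelial marker of cluster 13 that reached 20 CPM in positive or negative cells, and it was at least 2-fold higher in positive cells. The 10 mesothelial markers together had 26.5 CPM in positive and 11.5 CPM in negative cells there. No UMI of Msln, Upk3b, Upk1b, Lrrn4 or Muc16 was found in 576 of 843 Calca-positive dorsal cells (68.3%), against 7242 of 8083 Calca-negative cells (89.6%). In cluster 7 the number was 61 of 299 positive (20.4%) and 194 of 716 negative cells (27.1%). In cluster 4 it was 277 of 288 positive (96.2%) and 1138 of 1186 negative cells (96.0%), and in cluster 13 it was 73 of 73 positive and 504 of 517 negative cells (97.5%). Among cells with at least 10 Calca UMIs it was 13 of 78 in cluster 7, 55 of 55 in cluster 4 and 17 of 17 in cluster 13. In the ventral library these genes were lacking in 25 of 77 positive (32.5%) and 8072 of 10572 negative cells (76.4%), and within the mesothelial-like cluster 8 in 2 of 41 positive and 14 of 840 negative cells.

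The 77 ventral Calca-positive cells gave ratios that often rested on 1 cell. The highest ratios in the 77 positive cells were those of the epithelial genes Epcam (7.26), Krt17 (7.16) and Sfn (5.02), but 98.8% of the Epcam, 100% of the Krt17 and 95.9% of the Sfn UMIs came from 1 cell. Col6a5 (3.75, in 20 positive cells) and Saa3 (3.59, in 65 positive cells, at 10632 CPM against 880.4 CPM) were spread over more cells and were named in the dorsal comparison too. Within cluster 8 their log2 ratios were lower, at 2.27 (1.84 to 2.67) for Col6a5 and 1.65 (1.63 to 1.67) for Saa3. Over all ventral cells 8 of 10 mesothelial markers were at least 2-fold higher in the positive cells, with a summed level of 1410 CPM against 334.8 CPM, as were 9 of 10 cell-cycle markers, at 920.5 CPM against 417.1 CPM. The part of these cell types in the other ratios was not tested. Hoxa5 was at 48.6 CPM in positive and 8.996 CPM in negative cells of the ventral cluster 8 (log2 ratio 2.43, 1.95 to 2.88), and Msln was at 558.9 and 1003.2 CPM (-0.84, -0.97 to -0.72). Among ventral cells 3.8% of 5895 genes were at least 2-fold higher in positive cells and 1.71% lower.

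Calcb, the other CGRP gene, was found in 36 dorsal and 6 ventral cells. Of the 36 dorsal cells 28 also had Calca, and 24 lay in cluster 4, where Calcb had 4.52 CPM in Calca-positive and 0.127 CPM in Calca-negative cells (log2 ratio 5.15, 3.81 to 6.85). The similar sequence above means that part of this overlap could come from shared reads, which was not tested. In cluster 7, which had the most Calca, 2 cells had Calcb. A single ventral cell held 23 of the 29 ventral Calcb UMIs. That cell had 82 UMIs of Epcam and 365 of Krt8, and the dorsal cell with the most Calcb (10 UMIs, with 9 of Calca) had 61 of Epcam and 259 of Krt8. Epcam marks epithelial cells, and 5 dorsal and 3 ventral cells had at least 5 UMIs of it. Those cells, chosen after their values were seen, held 11 of 67 dorsal and 25 of 29 ventral Calcb UMIs.

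The receptor gene Calcrl was highest in vessel-lining cells. Lymphatic endothelial-like cells had 110.0 CPM (27 dorsal cells, 76 UMIs, 86.6 to 137.6), and the endothelial-like cluster 18 had 40.2 CPM in 77 dorsal cells (31.5 to 50.5) and 19.4 CPM in 142 ventral cells (14.9 to 24.9). Its log2 ratio within that cluster was 1.05 (0.54 to 1.56). The next level was that of the ventral cluster 17, at 18.0 CPM in 234 cells. That cluster was unnamed, with 6 smooth muscle and 4 pericyte markers raised in it and the pericyte markers Higd1b and Notch3 among its leading genes. Among classes of at least 20 cells, Schwann and glial-like cells were lowest, at 0.895 CPM in dorsal cells and 1.04 CPM in ventral cells. Ventral mesothelial-like cells were not set apart from them, at 1.06 CPM (0.70 to 1.55). Most Calcrl UMIs lay outside these small clusters. Unnamed clusters held 43.2% of dorsal and 28.2% of ventral Calcrl UMIs. Fibroblast-like cells held 31.9% of dorsal and 57.6% of ventral Calcrl UMIs (36.4% of ventral UMIs at a finer Leiden resolution of 2.0, where unnamed clusters led), at 4.41 CPM in dorsal cells and 4.76 CPM in ventral cells. Clusters 3, 4 and 15 made up most of the dorsal class and clusters 0, 1 and 9 the ventral one. In 7 of the 8 shared clusters the interval of the Calcrl ratio spanned 0. Low-UMI barcodes had 3.79 CPM of Calcrl in the dorsal and 4.15 CPM in the ventral library, close to these fibroblast levels. With cells thinned to 8000 UMIs, 3.30% of dorsal fibroblast-like cells had Calcrl (2.73 to 3.95) and 0 of 466 dorsal Schwann and glial-like cells did, which allows up to 0.644% of cells with a UMI.

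A minority of Calcrl-positive cells carried endothelial genes. Of 948 dorsal positive cells 37 were endothelial-like and 22 lymphatic endothelial-like. In the dorsal library the highest ratios over Calcrl-negative cells were those of the lymphatic chemokine Ccl21a (5.19), the lymphatic receptor Lyve1 (4.88), the tight junction gene Cldn5 (3.76), neurotensin (Nts, 3.58), and the endothelial junction genes Cdh5 (3.38), Emcn (3.34) and Pecam1 (3.23). Ccl21a was found in 28 of the positive cells and Pecam1 in 76. Among the lowest were those of the glial genes Ngfr (-2.69), Cadm1 (-1.88) and Gap43 (-1.74). In the ventral library Nts (3.04), Cldn5 (3.01) and Sox17 (2.24), an arterial endothelial factor, were among the highest, and the cardiac muscle genes Nppa (-4.33), Myl7 (-3.15) and Actc1 (-2.52) the lowest. At least 2-fold higher were 0.389% of genes in dorsal and 0.313% in ventral Calcrl-positive cells, and at least 2-fold lower were 0.283% and 0.331%. Dorsal positive cells were deeper, at a median of 28964 UMIs against 22073.

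Ramp1 was highest in contractile cells of both domains, among groups of at least 20 cells. Cardiomyocyte-like cells had 156.3 CPM (45 dorsal cells, 134.4 to 180.8) and 323.6 CPM (32 ventral cells, 283.1 to 368.4). The ventral cluster 17 had 215.8 CPM and the smooth muscle-like ventral cluster 11 had 176 CPM. In the dorsal library the Des-rich smooth muscle-like cluster 20 had 70.7 CPM in 130 cells, and skeletal muscle-like cells had 68.1 CPM in 38 cells. Not every contractile group was high. The smooth muscle-like cluster 14 had 10.5 CPM in 458 dorsal cells, below the 15.4 CPM of dorsal low-UMI barcodes and the 45.4 CPM of 25 dorsal T cell-like cells. Fibroblast-like cells had 5.28 CPM (4.81 to 5.78) in the dorsal and 57.8 CPM (56.5 to 59.1) in the ventral library. Unthinned, Ramp1 was found in 12.0% of dorsal and 49.3% of ventral cells, and after thinning in 5.85% and 30.5%.

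The lower dorsal level of Ramp1 was also found within most shared clusters. In 7 of the 8 shared clusters the interval of the dorsal over ventral log2 ratio lay below 0. Smooth muscle-like cluster 14 had 10.5 CPM in dorsal cells and 56.8 CPM in ventral cells (-2.44, -2.98 to -1.89), and the cycling cluster 6 had 5.63 and 62.6 CPM (-3.48, -3.97 to -3.02). Schwann and glial-like cluster 10 had 1.71 CPM in dorsal cells and 11.9 CPM in ventral cells (-2.80, -3.82 to -1.88), and macrophage-like cluster 16 had 2.96 and 17.5 CPM (-2.56, -3.26 to -1.90). In cardiomyocyte-like cells the ratio was -1.05 (-1.34 to -0.76). The exception was cluster 9, fibroblast-like with 21 dorsal cells, with 29.9 CPM in dorsal against 33.2 CPM in ventral cells (-0.15, -0.92 to 0.52). Endothelial-like cells had 1 Ramp1 UMI in 77 dorsal cells and 32 UMIs in 142 ventral cells, or 10.0 CPM. Low-UMI barcodes were also higher in Ramp1 on the ventral side, at 15.4 CPM in the dorsal and 52.7 CPM in the ventral library, so that free RNA moved with these ratios, and its part in them was not tested. The ventral smooth muscle-like level of 167.6 CPM (160.3 to 175.3) lay above the ventral low-UMI interval of 47.4 to 58.3 CPM, and the fibroblast-like interval overlapped it.

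**Figure D3:**
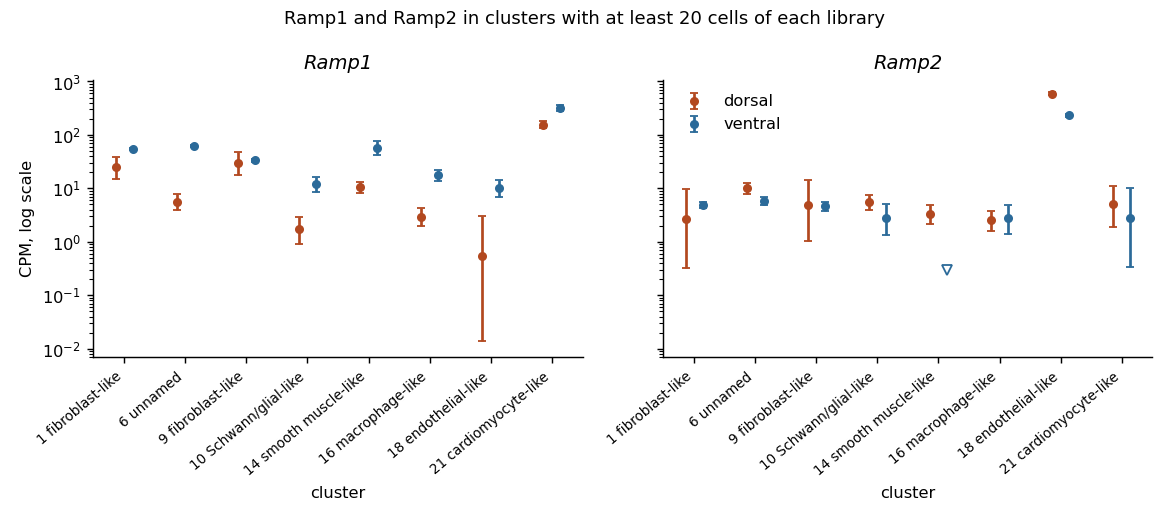
CPM (log axis) of Ramp1 and Ramp2 in the 8 clusters with at least 20 cells of each library, dorsal to the left of ventral in each pair, with exact 95% Poisson intervals. The open triangle marks 0 UMIs and is placed at an arbitrary height. The interval of the Ramp1 ratio lies below 0 in 7 of these clusters and spans 0 in cluster 9, and Ramp2 stands out in endothelial-like cluster 18, with 589.7 CPM in dorsal against 231.7 CPM in ventral cells.

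Ramp2 and Ramp3 are the partners that turn the receptor toward adrenomedullin, and Ramp2 was highest in endothelial classes. It had 788.6 CPM in lymphatic endothelial-like dorsal cells (545 UMIs in 27 cells). In the endothelial-like cluster 18 it had 589.7 CPM in dorsal cells and 231.7 CPM in ventral cells, with a log2 ratio of 1.35 (1.21 to 1.48), and was found in 75 of 77 dorsal and 124 of 142 ventral cells. Outside endothelium the highest dorsal levels were 29.1 CPM in cluster 13, which also had much Calca, 24.5 CPM in the fibroblast-like cluster 15 and 19.6 CPM in the unnamed cluster 2. The highest ventral level outside endothelium was 14.8 CPM in the unnamed cluster 5, which is led by Fmod and Scx. Low-UMI barcodes had 17.9 CPM of Ramp2 in the dorsal and 11.4 CPM in the ventral library. No class led for Ramp3, since intervals of its highest levels overlapped. Ramp3 had 13.02 CPM (9 UMIs, 5.95 to 24.7) in lymphatic endothelial-like dorsal cells, 10.08 CPM (6 UMIs in 25 cells, 3.70 to 21.9) in T cell-like dorsal cells, 8.81 CPM (16 UMIs, 5.04 to 14.3) in endothelial-like dorsal cells and 3.13 CPM (10 UMIs) in endothelial-like ventral cells. It was found in 1.85% of dorsal and 0.667% of ventral cells.

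**Figure D4:**
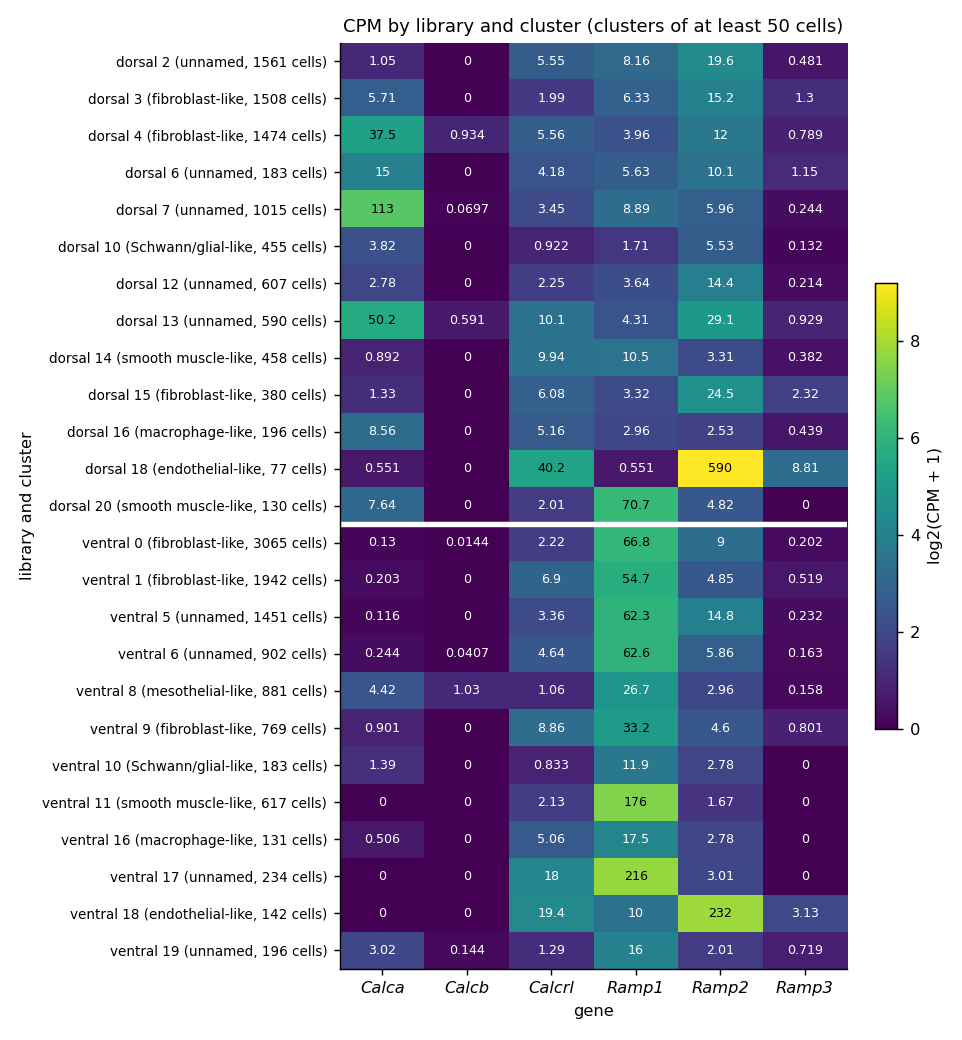
CPM of the 6 genes in every library and cluster with at least 50 cells, dorsal rows above ventral rows, coloured by log2(CPM + 1) with the CPM printed in each cell. Calca is high in dorsal clusters 7, 4 and 13 (112.6, 37.5 and 50.2 CPM), Ramp1 in the ventral rows, and Calcrl and Ramp2 in the endothelial-like rows of both libraries.

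Of all UMIs of the 3 accessory protein genes, Ramp1 made up 28.9% in dorsal (27.8 to 29.97) and 85.5% in ventral cells (84.9 to 86.0), and Ramp2 made up 68.3% and 14.1%. Cell classes fell between extremes. Ramp1 made up 96.3% in dorsal and 99.1% in ventral cardiomyocyte-like cells, and 87.1% and 99.1% in dorsal and ventral smooth muscle-like cells. In endothelial-like cells it was 0.0919% in dorsal and 4.09% in ventral cells, where Ramp2 made up 98.4% and 94.6%. The leading partner differed between domains in fibroblast-like cells, where Ramp1 made up 25.7% (23.7 to 27.7) in dorsal and 88.7% (88.0 to 89.4) in ventral cells. That class was made mostly of different clusters in each library. In the shared fibroblast-like clusters Ramp1 led in dorsal cells too, on few UMIs. Cluster 1 had 19 UMIs of Ramp1 and 2 of Ramp2 in 26 dorsal cells, and cluster 9 had 18 and 3 in 21 dorsal cells. The leading partner also differed in Schwann and glial-like cells, on 57 UMIs in each library, with 22.8% Ramp1 in dorsal (12.7 to 35.8) and 77.2% in ventral cells. Low-UMI barcodes had 57 UMIs of Ramp1 and 66 of Ramp2 in the dorsal library, and 368 and 80 in the ventral library. Ramp1 in Schwann and glial-like cells (1.66 CPM dorsal, 11.4 CPM ventral) lay below the low-UMI levels of 15.4 and 52.7 CPM. Dorsal fibroblast-like cells, at 5.28 CPM, did too. The part of free RNA in these shares was not tested.

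**Figure D5:**
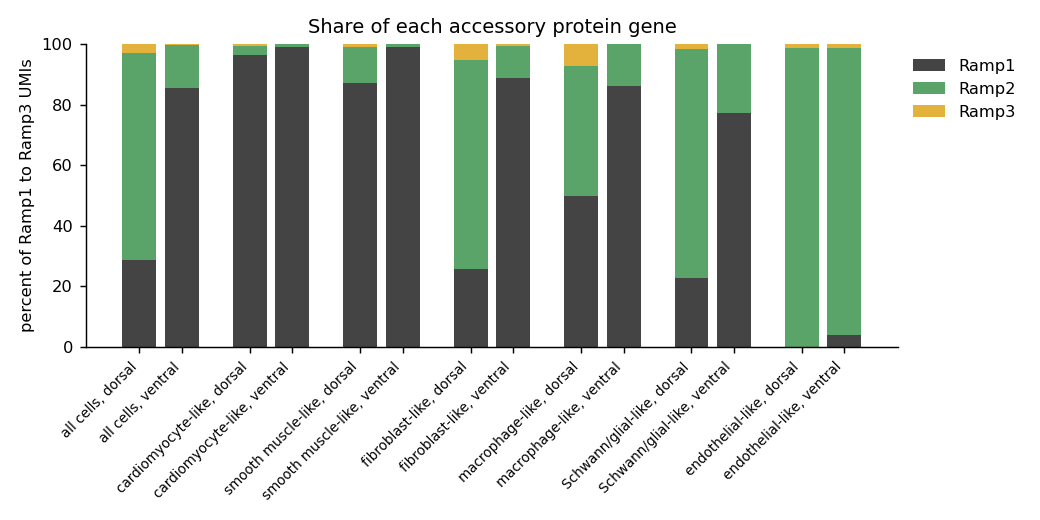
Percent of Ramp1, Ramp2 and Ramp3 UMIs in all cells and in 6 cell classes, dorsal bar to the left of the ventral bar. Ramp1 (dark) fills 25.7% of the dorsal and 88.7% of the ventral fibroblast-like bar, while cardiomyocyte-like and endothelial-like bars are led by the same gene on both sides. The fibroblast-like class is made mostly of different clusters in each library.

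Cells with peptide genes were then set against cells with both parts of the CGRP receptor, Calcrl and Ramp1. After thinning to 8000 UMIs, 530 dorsal cells had Calca or Calcb without the receptor pair, 20 had the pair without a peptide gene, and 1 had both. In ventral cells the numbers were 38, 101 and 0 of 10649, and the last allows a share of up to 0.0282%. Cells with the receptor pair alone were 0.224% (0.137 to 0.346) of dorsal and 0.948% (0.773 to 1.15) of ventral cells. Without thinning, 12 dorsal and 4 ventral cells had both. A pair that was not detectable at this depth is not shown to be absent.

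Calcrl and Ramp1 were found in Calca-positive dorsal cells at shares close to those of other dorsal cells, within wide intervals. After thinning, Calcrl was found in 21 of 526 Calca-positive cells (3.99%) and in 336 of 8400 Calca-negative cells (4.0%), a log2 ratio of -0.0027 (-0.71 to 0.63). Ramp1 was found in 5.70% of positive and 5.86% of negative cells (-0.04, -0.62 to 0.49). Ramp2 was found in 7.60% of positive and 11.8% of negative cells, a log2 ratio of -0.64 (-1.13 to -0.18) that came to -0.15 (-0.37 to 0.06) without thinning. Calcrl without thinning came to 0.38 (0.08 to 0.66). The pair of Calcrl and Ramp1 was found in 1 of 526 positive and 20 of 8400 negative cells. In ventral cells Ramp1 was found in 10 of 35 positive cells (28.6%) and 30.5% of negative cells, and Calcrl in 0 of 35, which allows up to 8.57% of cells with a UMI.

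The partner found beside Calcrl differed between domains, much as the partners did over all cells. Among thinned Calcrl-positive cells, Ramp1 was found in 21 of 357 dorsal (5.88%) and 101 of 368 ventral cells (27.4%), and Ramp2 in 78 of 357 dorsal (21.8%) and 36 of 368 ventral cells (9.78%). Over all thinned cells Ramp1 was found in 5.85% of dorsal and 30.5% of ventral cells, so its shares beside Calcrl repeat the level of the library, and Ramp2 in 11.6% of dorsal and 6.20% of ventral cells. In endothelial-like cells Ramp2 accompanied Calcrl in 18 of 20 dorsal and 13 of 19 ventral cells, and was found in 94.8% of all thinned dorsal and 72.5% of ventral cells of the class. In fibroblast-like cells Ramp1 accompanied it in 4 of 113 dorsal (3.54%) and 49 of 217 ventral cells (22.6%), against 3.65% and 29.5% of all thinned fibroblast-like cells. The dorsal cells with the pair, without thinning, numbered 101 and lay mostly in clusters 2 (28 cells), 4 (24 cells) and 7 (14 cells). They made up 1.79%, 1.63% and 1.38% of these large clusters. Among dorsal clusters of at least 20 cells the highest shares were in cardiomyocyte-like (5 of 45, 11.1%) and skeletal muscle-like cells (4 of 38, 10.5%). The 430 ventral cells with it were led by fibroblast-like clusters 1 (112 cells) and 0 (87 cells), and in cluster 17 they made up 49 of 234 cells (20.9%).

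Other genes of the peptide pathway were counted from 9 lists. Of their 73 genes 23 reached 20 CPM in either library, of which 3 had dorsal levels of 2 times the ventral ones or more and 1 was lower by 2-fold or more, against 4.69% and 5.12% of all genes, and on so few genes nothing is read from the counts. Of the other ligands, Adm, which encodes adrenomedullin, was far above the CGRP genes, with 273.96 CPM in the dorsal and 233.4 CPM in the ventral library (log2 ratio 0.23). Adm2, for intermedin, had 10.1 CPM in dorsal cells and 2.89 CPM in ventral cells (1.80), and the amylin gene Iapp had 0 UMIs in both. The calcitonin receptor Calcr had 19 UMIs in dorsal and 0 in ventral cells. Crcp, a component of CGRP receptor signalling, was even at 21.9 CPM in both libraries. Gpr182, an endothelial receptor that has been linked to adrenomedullin, had 327 UMIs in dorsal and 54 in ventral cells.

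Of 8 genes for processing peptide precursors 4 reached 20 CPM, of which 1 was at least 2-fold lower in dorsal cells and 0 were higher, with a median log2 ratio of -0.47 against 0.0089 for all genes. The lower gene was Cpe, a carboxypeptidase that trims neuropeptides, with 174.2 CPM (dorsal) and 407.1 CPM (ventral) (-1.22). Pam, which amidates CGRP at its end, had 113.9 CPM in dorsal cells and 159.4 CPM in ventral cells (-0.48). The convertases of regulated secretion were almost absent, with 1 UMI of Pcsk1 in dorsal and 3 in ventral cells, and 23 and 31 UMIs of Pcsk2. Of 10 dense-core vesicle genes 2 reached 20 CPM and 0 differed 2-fold. Among them Scg2 had 29.99 CPM in dorsal cells and 17.9 CPM in ventral cells (0.74), while Chga had 16 and 2 UMIs. Of 3 genes for peptide breakdown, Mme, the endopeptidase neprilysin, was higher in dorsal cells, at 21.8 CPM against 4.62 CPM (2.24), and Ece1 and Ide differed by less than 2-fold. Over all genes 4.69% were at least 2-fold higher and 5.12% at least 2-fold lower in dorsal cells. Nothing is read from the counts or the median of lists with so few genes.

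Of 15 genes of Gs and cyclic AMP signalling 6 reached 20 CPM and 0 differed 2-fold (median -0.28). Of 11 genes known to respond to cyclic AMP 5 reached it, with 2 higher in dorsal cells, 0 lower and a median of 0.86, against 4.69% higher, 5.12% lower and a median of 0.0089 over all genes. These were the nuclear receptor gene Nr4a1, with 91.9 CPM in dorsal against 18.8 CPM in ventral cells (2.29), and the phosphodiesterase gene Pde4b, at 30.9 and 8.55 CPM (1.85). Many stimuli raise these genes, Fos among them, which had 175.2 CPM in dorsal cells and 98.8 CPM in ventral cells (0.83). Of 11 other class B receptors only Pth1r reached 20 CPM, with 19.6 CPM in dorsal against 26.6 CPM in ventral cells. Of 8 other neuropeptide genes 0 reached 20 CPM. Among these Penk had 4.72 CPM in dorsal cells and 0.170 CPM in ventral cells and Vip 110 and 3 UMIs. Within the dorsal library 24 genes of the 9 lists reached 20 CPM in Calca-positive or Calca-negative cells and 0 of them differed 2-fold, against 0.736% higher and 1.1% lower over all genes, so that a count of 0 does not set the lists apart. Within cluster 7, 3 of 25 were higher in positive cells (Mme, Nr4a3 and Rgs2) and 1 lower (Scg2), against 1.1% and 0.464% of all genes. In cluster 4, 0 of 20 differed. In cluster 13, 1 of 25 was higher (Scg2, mostly from 1 cell) and 2 were lower (Ackr3 and Cpe), against 0.583% and 1.22%. On so few genes nothing is read from these counts.

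The genes whose level was most like each member's were ranked by Pearson's r of log2(CPM + 1) over 25 groups, each a library and cluster of at least 50 cells, among 8756 genes. The groups share 2 libraries, so r describes them and carries no test. Nearest to Calca were the complement genes C2 (r = 0.83) and C3 (0.80), the hormone Fgf21 (0.81), Cpxm1 (0.80) and Gdpd2 (0.80). Nearest to Calcrl were the Wnt receptor Fzd4 (0.84), Acer2 (0.81), Cbfa2t3 (0.77), Ctbs (0.77) and the adenylate cyclase Adcy4 (0.76). Nearest to Ramp1 were Hacd1 (0.93) and the contractile genes Acta2 (0.93), Nexn (0.91) and Tagln (0.91), with RP24-118K20.1 (0.90). Nearest to Ramp2 were the endothelial genes Egfl7 (0.90), Hspa12b (0.90) and Clec14a (0.90), with Rnf125 (0.90) and Apln (0.89), which encodes apelin. Between members r was 0.62 for Calcrl with Ramp2, -0.14 for Calcrl with Ramp1, -0.45 for Calca with Ramp1 and -0.19 for Calca with Calcrl. Calcb and Ramp3 stayed under 20 CPM in every group and were not ranked.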

How the data were processed

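RNA of single cells was measured with droplet 3' libraries, 1 per domain. The submitters' processing notes name Cell Ranger 3.0.2 and the build mm10, and other settings were not given in the sources used here. UMI counts deposited by the authors are not normalized. Each library has 28692 genes and 6794880 barcodes, with 246920028 dorsal UMIs and 264822916 ventral UMIs.

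Barcodes with at least 8000 UMIs and at most 20% mitochondrial UMIs were kept, which held 92.8% of dorsal and 95.6% of ventral UMIs. Counts were normalised to 10000 per cell and clustered with scanpy 1.11.5 (2000 variable genes less the members among them, 30 components, 15 neighbours, Leiden resolution 1.0). Classes needed 4 markers and 50% of a list, each in 25% of cells and 2-fold higher, a rule set after clusters were seen; fibroblast-like clusters needed 5 markers in 50% of cells. Scrublet's threshold failed in the dorsal library, so its highest 637 scores were marked; 544 ventral barcodes were marked, and all were kept except in an alternative. Intervals were exact at 95% (Poisson for CPM, conditional binomial for ratios, Clopper-Pearson for shares). A count of 0 was given a limit of 3. Ratio functions were tested on simulated data. The members and lists were chosen with earlier results of these data known. Named genes were the 8 highest and 4 lowest ratios among genes at 20 CPM, without mitochondrial, ribosomal and provisional names, of which examples are given, and the 5 most alike in pattern. The comparisons within clusters, and the genes followed from one group into another (Cxcl13, Hoxa5, Msln), were added after values were seen. Gene positions came from GENCODE M21, in which 28339 of the 28692 IDs matched. TMM scaling used edgeR 4.0.16.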

Additional observations from a re-analysis of the deposited data

How the results depend on the processing

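No paired analysis was possible because each domain had 1 library. The log2 ratios of the 6 genes kept their sign under a minimum of 4000 UMIs, a mitochondrial maximum of 10%, removal of marked doublets, TMM scaling, thinning, and removal of barcodes found in both libraries (the last chosen after seeing the data), and 28 of 36 such values stayed within the original intervals. Calca came to 5.44 without doublets and 5.42 after thinning. Calcb came to 3.63 without the shared barcodes, 1 of which held 23 of 29 ventral UMIs. Thinning gave 0.16 for Calcrl, 1.15 for Ramp2 and 1.75 for Ramp3. TMM scaling gave -2.93 for Ramp1 and 0.91 for Ramp2, and moved the median over all genes from 0.01 to -0.11. Among co-detection ratios, 18 of 19 alternatives stayed within their intervals, and Ramp2 in dorsal Calca-positive cells came to -0.15 unthinned. Ratios against 0 of 35 ventral cells have no value. Without the expression minimum, 3068 genes were at least 2-fold higher and 1300 lower in dorsal cells, against 273 and 298 with it, and TMM scaling (added later) gave 241 and 350. The share of a member's UMIs in its leading class moved beyond its counting interval in 16 of 36 values, each for a gene and library under an alternative clustering. Depth limits what can be said of Calcb, Ramp3 and receptor pairs in single cells. Free RNA held every member in the dorsal library, and no correction for it was made.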

Other observations

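Among 77 ventral Calca-positive cells, 14.3% were marked as possible doublets, against 5.04% of negative cells. In the 158 dorsal cells with at least 10 Calca UMIs, 3 lay in the macrophage-like and 2 in the cycling cluster, and the cell with the most, at 141, lay in the fibroblast-like cluster 3, where 30 of 1508 cells had any.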
